A study of Homo sapiens with 10 samples.

Results

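Metallothioneins and zinc regulation were described across TPC-1 cells from 6 of the 58735 genes in the deposited table, picked by gene name. MT1E, MT2A, MT1X and MT1F encode metallothioneins, SLC30A1 encodes the zinc exporter of the plasma membrane, and MTF1 encodes the zinc-sensing transcription factor. The names had been picked with measured values of these libraries known, and which values served is not recorded, so the fold changes and adjusted p given for the 6 genes describe these libraries and are not independent evidence. TPC-1 is a papillary thyroid carcinoma line with a CCDC6-RET fusion, and every library came from it. Parental cells had been treated for 24 h with the solvent DMSO or with BLU667 at 5 µM. BLU667, also called pralsetinib, blocks the kinase activity of RET. The colonies adapted to it, BR8, BR10 and BR16, were 3 derivatives of the same line kept in 5 µM BLU667, for more than 50 days by the sample labels and for more than 5 months by the series design. Each of the 5 groups had 2 libraries, called biological replicates in the design; whether the 2 libraries of a colony came from separate cultures is not stated, and p-values measure the spread between libraries. No solvent-only colony stood beside the adapted ones, so long culture, derivation as a colony and long exposure cannot be told apart.

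Metallothioneins are small proteins that hold zinc and copper through clustered cysteines and buffer the free metal of the cell. When free zinc rises, MTF1 binds short metal response elements in the promoters of metallothionein genes and of SLC30A1 and raises their transcription. SLC30 family transporters move zinc out of the cytosol, and SLC39 family transporters move it in.

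The coding sequences of the 4 metallothioneins are shown because the genes are near copies of each other, which bears on how well reads can be assigned to each. They were taken from the GENCODE release 29 annotation on GRCh38, run 5′ to 3′ from start to stop codon, and have the cysteine codons in capitals.
MT1E: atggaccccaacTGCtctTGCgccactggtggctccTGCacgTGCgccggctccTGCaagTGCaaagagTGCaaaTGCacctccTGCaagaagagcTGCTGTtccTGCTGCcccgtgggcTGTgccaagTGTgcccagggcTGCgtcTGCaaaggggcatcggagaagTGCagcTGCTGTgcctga
MT2A: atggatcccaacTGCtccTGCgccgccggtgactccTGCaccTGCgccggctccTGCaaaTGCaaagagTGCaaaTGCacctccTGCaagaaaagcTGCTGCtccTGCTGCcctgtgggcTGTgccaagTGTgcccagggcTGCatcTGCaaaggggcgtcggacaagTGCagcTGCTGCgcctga
MT1X: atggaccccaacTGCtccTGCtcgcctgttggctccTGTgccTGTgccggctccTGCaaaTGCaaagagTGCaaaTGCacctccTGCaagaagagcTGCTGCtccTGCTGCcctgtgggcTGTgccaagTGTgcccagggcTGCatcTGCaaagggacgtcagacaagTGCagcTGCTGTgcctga
MT1F: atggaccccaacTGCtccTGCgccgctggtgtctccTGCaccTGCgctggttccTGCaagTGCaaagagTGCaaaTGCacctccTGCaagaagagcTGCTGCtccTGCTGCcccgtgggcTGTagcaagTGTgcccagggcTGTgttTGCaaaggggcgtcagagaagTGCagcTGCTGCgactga
Each was 186 bases long over 3 coding exons and held 61 codons, 20 of them for cysteine, and all 20 cysteine positions were shared in each pair. MT1E differed from MT2A at 14 bases (92.5% identity) and from MT1X at 17, and the most distant pair, MT1X and MT1F, differed at 21 (88.7%). Over the whole transcript, 5.34% of the 50-base windows of MT1E, 4.88% of those of MT2A and 3.59% of those of MT1F also occurred in transcripts of other genes. For MT1X the share was 45.1%, and 19.1% of its 100-base windows occurred in 1 other gene, whereas no 100-base window of MT1E, MT2A or MT1F was shared. Levels of MT1X are therefore the least certain of the 4 (read length not given in the sources used here), and how reads from shared stretches were assigned was not tested.

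On GRCh38, by the deposited table, the 4 metallothioneins lie on the plus strand of chromosome 16. MT2A (ENSG00000125148) spans 56608199 to 56609497, MT1E (ENSG00000169715) 56625475 to 56627112, MT1F (ENSG00000198417) 56657694 to 56660698 and MT1X (ENSG00000187193) 56682424 to 56684196. SLC30A1 (ENSG00000170385) spans 211571568 to 211578742 and MTF1 (ENSG00000188786) 37809567 to 37859620, both on the minus strand of chromosome 1. MT1X overlaps AC026461.1 on its own strand, a gene that spans 56682470 to 56687807 and had 0 reads in all 10 libraries. How reads that fall in both genes were assigned is not given, so MT1X may be undercounted. MTF1† overlaps AL929472.4 on the other strand. The sign † marks here and below a gene that overlaps another on the opposite strand, where the non-directional libraries cannot tell the 2 apart.

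Promoters are shown because MTF1 is known to act through them. Of the 6 genes, 4 matched the RefSeq promoter table (GRCh38.p14), namely MT2A, MT1X, SLC30A1 and MTF1. The 250 bases upstream of the RefSeq start were searched on both strands for the core of the metal response element, TGCACNC or TGCGCNC, and matches are in capitals. MT2A is read on the plus strand of chr16:56608334-56608583, MT1X on the plus strand of chr16:56682220-56682469 and SLC30A1 on the minus strand of chr1:211579162-211579411.
MT2A: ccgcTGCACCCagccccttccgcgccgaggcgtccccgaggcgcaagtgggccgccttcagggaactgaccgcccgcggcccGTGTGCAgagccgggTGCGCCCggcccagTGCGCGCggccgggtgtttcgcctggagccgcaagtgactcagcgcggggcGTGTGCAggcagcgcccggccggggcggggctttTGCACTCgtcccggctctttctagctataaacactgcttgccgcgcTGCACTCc
MT1X: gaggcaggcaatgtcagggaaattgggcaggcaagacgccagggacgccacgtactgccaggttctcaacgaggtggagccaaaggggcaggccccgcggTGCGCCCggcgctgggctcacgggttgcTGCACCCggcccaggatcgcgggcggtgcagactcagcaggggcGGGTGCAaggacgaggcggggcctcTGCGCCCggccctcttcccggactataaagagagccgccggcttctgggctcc
SLC30A1: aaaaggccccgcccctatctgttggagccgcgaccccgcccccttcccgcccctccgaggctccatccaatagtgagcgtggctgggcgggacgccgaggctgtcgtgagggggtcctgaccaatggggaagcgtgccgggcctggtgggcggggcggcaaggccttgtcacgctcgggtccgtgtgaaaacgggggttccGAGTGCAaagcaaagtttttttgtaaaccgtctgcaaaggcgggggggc
The MT2A promoter held 7 matches, MT1X 4, SLC30A1 1 and MTF1 0. The SLC30A1 window lies wholly upstream of the deposited gene, which begins at 211578742 on the minus strand. The bases between them were not searched, whereas the windows of MT2A, MT1X and MTF1 overlap their deposited genes. The SLC30A1 count is therefore not like for like. Of relatives with 0 reads in every library, MT1H held 8 matches and MT1B and MT4 held 3 each. Of 35116 promoters of this length, 24.8% held at least 1 match, 0.370% at least 4 and 0.0313% (11 promoters) at least 7. MT2A also held 1 match to TGANTCA, the motif of AP-1, which 6.57% of promoters held and which was not found in those of MT1X, SLC30A1 or MTF1. These are matches of letters and not measured binding sites.

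The libraries held 15243703 to 21904245 reads in genes, and FPKM (fragments scaled to gene length and library depth) of replicates correlated on the log2 scale across genes at r = 0.978 to 0.989. Differences were tested with limma on log2(FPKM + 1) in 1 fit of all groups over the 13927 genes with at least 1 FPKM in at least 2 libraries, and called at a Benjamini-Hochberg adjusted p under 0.05. Adding 1 FPKM understates the change of low genes. MT1F did not reach this filter, so 5 of the 6 genes were tested. Of the thyroid markers looked at, PAX8† and FOXE1 passed the filter, while TG†, TSHR†, NKX2-1† and SLC5A5 stayed near 0. Of the 5 epithelial markers KRT8† and KRT18† passed, and of 10 immune, endothelial and erythroid markers none did. The erythroid markers were the globin genes HBB, HBA1 and HBA2. Globin RNA was depleted with GlobinClear before sequencing, so their absence does not report on cell content. Of 5 fibroblast markers 3 passed (COL1A1, LUM and PDGFRB), with COL1A2† and DCN at 0. Their summed level was 3.09 to 3.32 FPKM in DMSO, 13.1 to 17.5 in BLU667, 5.66 to 7.40 in BR8, 0.750 to 0.848 in BR10 and 3.33 to 3.84 in BR16. The 3 did not move together, as LUM had 0 FPKM in DMSO and 5.52 ± 1.3 in BR8, where PDGFRB stood at 0.126 against 2.75 in DMSO. The summed epithelial level was 48.9 to 62.8 FPKM in DMSO, 28.2 to 28.6 in BLU667, 46.9 to 52.5 in BR8, 45.1 to 47.8 in BR10 and 97.4 to 109.7 in BR16. PAX8† had means of 44.3 in DMSO and 94.1 in BR16. The part of these markers in the values below was not tested.

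MT2A made up nearly all metallothionein RNA in every group, MT1E rose with 24 h of BLU667 and had no read in any adapted colony, and MT1X was low in all groups. Of the 12 metallothionein genes in the table, 8 had 0 reads in all 10 libraries (MT1A, MT1B, MT1G, MT1H, MT1HL1, MT1M, MT3 and MT4), as had all 5 pseudogenes of the family. MT2A provided 98.0% and 96.9% of the family's reads in the DMSO libraries and 92.8% and 92.9% in BLU667. In the 6 colony libraries its share lay between 98.9% and 99.4%. MT1E provided 1.86% and 2.75% in DMSO and 6.82% and 6.47% in BLU667.

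**Figure D1:**
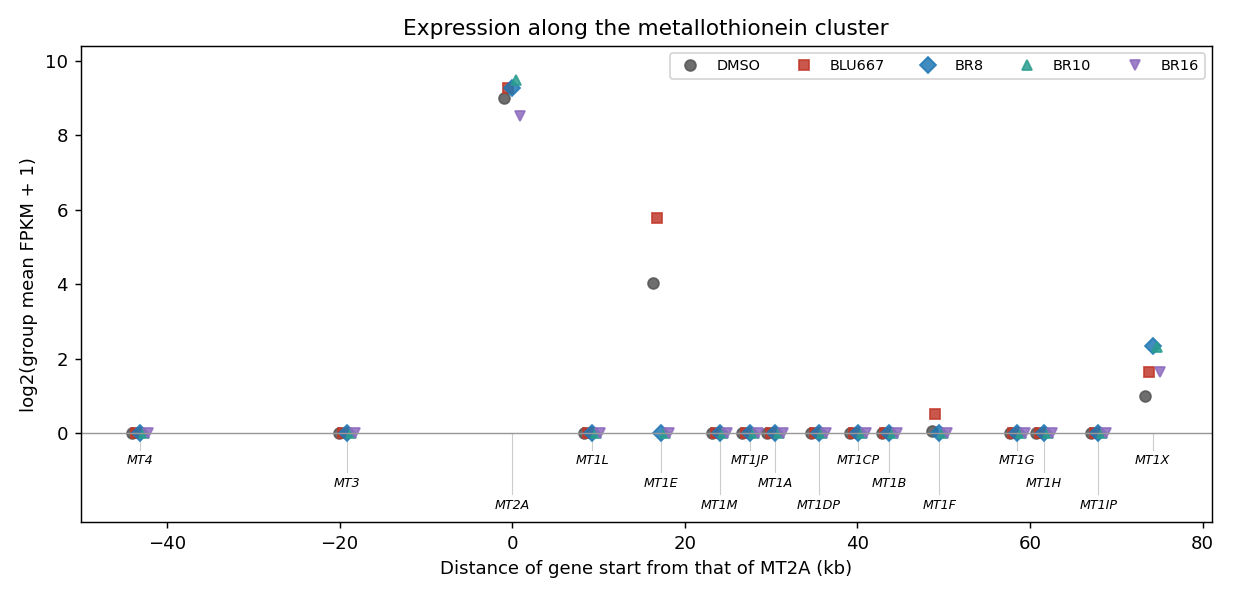
Expression along the metallothionein cluster of chromosome 16: the horizontal axis gives the distance of each gene's start from that of MT2A in kb, the vertical axis log2 of the group mean FPKM + 1, and each symbol 1 group of 2 libraries. MT2A stands highest in all groups, MT1E is above 0 in DMSO and BLU667 and at 0 in BR8, BR10 and BR16, and the genes between MT1E and MT1X other than MT1F lie at 0.

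MT1E was read in every parental library and in no colony library. Its FPKM were 11.4 and 19.0 in DMSO (222 and 316 reads), 48.7 and 59.5 in BLU667 (902 and 1087 reads) and 0 in all 6 libraries of BR8, BR10 and BR16. Both BLU667 libraries stood above both DMSO libraries, and the colonies overlapped neither group. The mean rose from 15.2 ± 5.4 (SD, n = 2) to 54.1 ± 7.6 FPKM with BLU667, a 3.56-fold difference of FPKM. The log2 change was 1.80 ± 0.20 (SE, limma, adjusted p = 0.000101). The colonies at 0 add no spread to the estimate shared by the groups, so this SE and p can be too small. The change was also called in a fit of DMSO and BLU667 alone. Over the 6 colony libraries together, a floor of 3 reads puts MT1E at least 571-fold lower than in DMSO and at least 2034-fold lower than in BLU667. For single colonies the floor gives at least 183-fold (BR8), 207-fold (BR10) and 181-fold (BR16) lower than in DMSO. These limits cover counting error only, and in such bulk RNA fewer expressing cells and less RNA per cell cannot be told apart. MT1E passed the filter through DMSO and BLU667 alone, so the absence in the colonies is given as a description with no test.

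Few genes of that level had no read in the colonies. Of 4020 genes with at least 10 FPKM in both DMSO libraries, 1 had 0 reads in all 6 colony libraries (0.0249%), and it was MT1E. As MT1E was picked with values of these libraries known, these shares are a description and not independent evidence. Of 3708 genes with at least 10 FPKM in both BLU667 libraries, again MT1E was the 1 with no read in the colonies. With the level lowered to 1 FPKM in both DMSO libraries, 8 of 11249 genes had none (0.0711%). Within 250 kb of MT1E the table lists 30 genes, of which 10 passed the filter, and MT1E was the only 1 of those 10 with no read in the colonies. In the family, MT2A and MT1X were read in every colony library, while MT1F, which lies between MT1E and MT1X, had no read there.

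MT1F lay at the edge of detection and is given in reads. It had 0 and 2 reads in DMSO (0 and 0.0670 FPKM), 10 and 18 in BLU667 (0.301 and 0.548 FPKM) and 0 in all 6 colony libraries. Both BLU667 libraries were above all others, and DMSO replicate 1 had no read, like the colonies. The 28 reads in BLU667 against 2 in DMSO gave a ratio of 13.8 after scaling for depth, with an exact 95% interval from 3.47 to 119 that covers counting error only. The colonies were at least 28.7-fold lower than BLU667. Against DMSO no fold is given, because 2 reads lie under the floor of 3.

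MT2A stayed among the most abundant transcripts of every library, ranking between 20 and 70 of all genes by FPKM. Its FPKM were 484 and 542 in DMSO, 536 and 692 in BLU667, 644 and 595 in BR8, 645 and 799 in BR10 and 367 and 371 in BR16. The BLU667 libraries overlapped those of DMSO, BR8 and BR10, whereas both BR16 libraries were below all others. BLU667 and DMSO differed by 0.25 ± 0.15 on the log2 scale (limma, adjusted p = 0.176), which misses the threshold, although without BLU667 replicate 1 the difference was 0.43 (adjusted p = 0.0394). The mean of the 3 colonies differed from DMSO by 0.09 ± 0.12 (limma, adjusted p = 0.546) and from BLU667 by -0.15 ± 0.12 (adjusted p = 0.293).

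The colonies did not share 1 level of MT2A, as the test of differences among them was called (limma moderated F, adjusted p = 0.00231). BR16, at 369 ± 3.0 FPKM, was lower than BR8 at 620 ± 34 by a log2 change of -0.75 ± 0.15 (limma, adjusted p = 0.00460) and lower than BR10 at 722 ± 109 by -0.96 ± 0.15 (adjusted p = 0.00179). Of all tested genes, 48.6% were called between BR16 and BR8 and 43.1% between BR16 and BR10. BR16 was also lower than BLU667 by -0.72 (limma, adjusted p = 0.00320). Against DMSO, BR10 was higher by 0.48 (limma, adjusted p = 0.0303) and BR16 lower by -0.47 (adjusted p = 0.0296). Those calls against DMSO were close to the threshold. The BR10 call was lost without DMSO replicate 1 (limma, adjusted p = 0.120), without BR10 replicate 2 (0.180) and without BR16 replicate 1 or 2 (0.0520 and 0.0518). The BR16 call was lost without DMSO replicate 2 (limma, adjusted p = 0.130) or without BR16 replicate 1 or 2 (0.114 and 0.107). Between the 2 DMSO libraries, differences followed the GC content of genes at a Spearman correlation of -0.61 across genes (replicate 2 minus replicate 1), and all comparisons with DMSO rest on these libraries. Differences between BR16 and the other colonies followed the GC content of genes, with a Spearman correlation across genes of 0.60 against BR8 and 0.53 against BR10, and MT2A holds 55.7% GC. With each library's GC trend removed, both calls remained (limma, adjusted p = 0.00190 against BR8 and 0.000992 against BR10), and the change against BR10 was -1.15.

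MT1X was low everywhere and highest in BR8 and BR10. Its FPKM were 0.578 and 1.39 in DMSO, 1.47 and 2.76 in BLU667, 3.30 and 4.75 in BR8, 4.50 and 3.48 in BR10 and 2.47 and 1.75 in BR16, from 19 to 142 reads. All 6 colony libraries were above both DMSO libraries, while BLU667 and BR16 overlapped. The colonies' mean of 3.38 FPKM was 3.43-fold that of DMSO at 0.984 ± 0.575, a log2 change of 1.13 ± 0.22 (limma, adjusted p = 0.00347). With the 3 colony means as replicates the call was lost (limma, adjusted p = 0.0607). BR8 and BR10 were higher than DMSO by 1.36 and 1.35 (limma, adjusted p = 0.00352 and 0.00508), and BR16 differed from it by 0.67 (adjusted p = 0.0763), a difference called without DMSO replicate 2 (0.97, adjusted p = 0.0397). The colonies differed from BLU667 by 0.48 ± 0.22 (limma, adjusted p = 0.0940), called without BLU667 replicate 2 (0.78, adjusted p = 0.0423). For BLU667 against DMSO the change was 0.65 ± 0.27 (limma, adjusted p = 0.0677), and it was called without DMSO replicate 2 (0.95, adjusted p = 0.0289) and without BLU667 replicate 1 (0.95, adjusted p = 0.0295). Differences among the colonies were not called (limma moderated F, adjusted p = 0.0817).

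**Figure D2:**
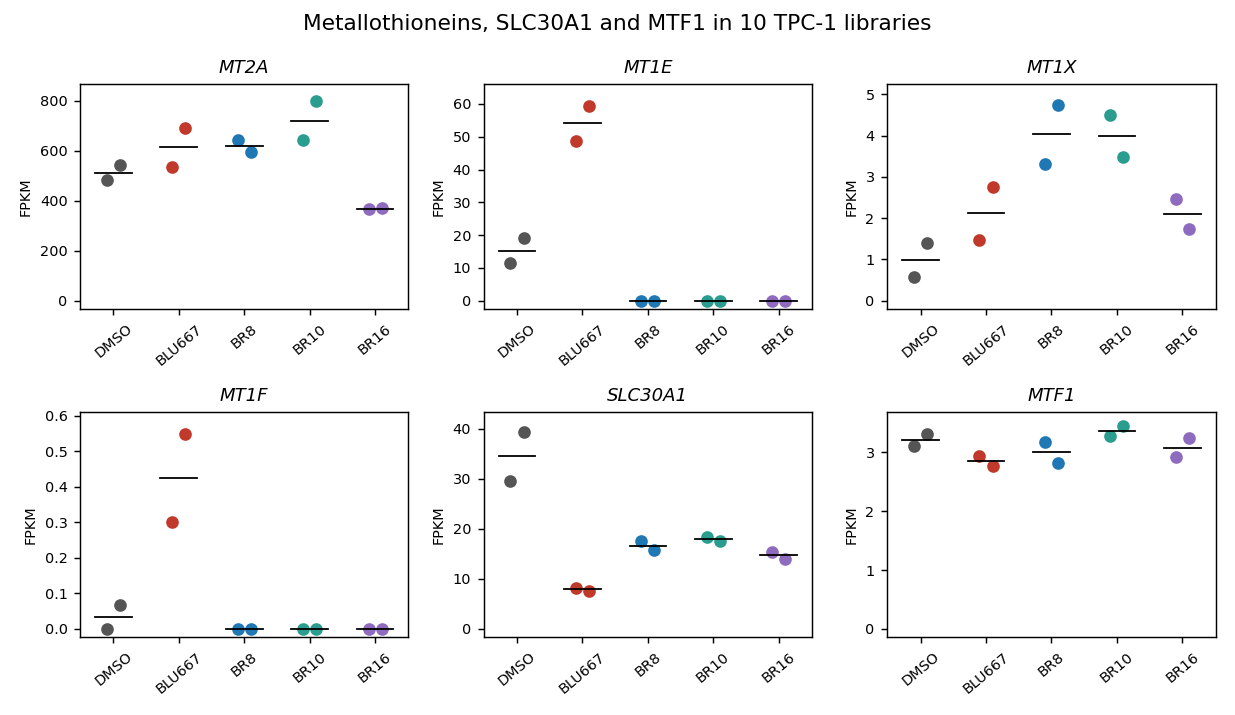
FPKM of the 6 genes in each library, with 1 panel per gene on its own vertical axis, 1 point per library and a line at the mean of the 2 libraries of a group. MT1E is at 0 in the 6 colony libraries against 11.4 to 59.5 FPKM in parental cells, and SLC30A1 is highest in DMSO, lowest in BLU667 and between them in the colonies.

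SLC30A1, which carries zinc out across the plasma membrane, fell with 24 h of BLU667 and stood between BLU667 and DMSO in all 3 colonies. Its FPKM were 29.6 and 39.3 in DMSO, 8.16 and 7.66 in BLU667, 17.5 and 15.8 in BR8, 18.4 and 17.7 in BR10 and 15.5 and 14.0 in BR16. No colony library overlapped DMSO or BLU667, while the colonies lay close to each other. BLU667 at 7.91 ± 0.35 FPKM was 4.36-fold lower than DMSO at 34.5 ± 6.9, a log2 change of -1.98 ± 0.13 (limma, adjusted p = 5.08e-06). The colonies together were 2.09-fold lower than DMSO (-1.01 ± 0.11, limma, adjusted p = 0.000115) and 2.08-fold higher than BLU667 (0.97 ± 0.11, adjusted p = 9.11e-05). Each colony was called against both, with log2 changes of -0.99 (BR8), -0.88 (BR10) and -1.16 (BR16) against DMSO and of 0.99, 1.10 and 0.82 against BLU667. Among the colonies the range was 0.28 on the log2 scale and not called (limma moderated F, adjusted p = 0.206), but it was called without DMSO replicate 1 (adjusted p = 0.0406) or DMSO replicate 2 (adjusted p = 0.0409). The transcript of SLC30A1 shared no 50-base window with another gene.

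MTF1†, the factor that activates metallothionein genes and SLC30A1 when zinc is high, had nearly the same transcript level in every group. Its FPKM were 3.10 and 3.31 in DMSO, 2.94 and 2.78 in BLU667, 3.18 and 2.83 in BR8, 3.28 and 3.44 in BR10 and 2.92 and 3.24 in BR16. Both BLU667 libraries were below both DMSO libraries, and the colonies overlapped DMSO. The log2 differences were -0.13 ± 0.09 for BLU667 against DMSO (limma, adjusted p = 0.246), -0.02 ± 0.07 for the colonies against DMSO (adjusted p = 0.825) and 0.10 ± 0.07 for the colonies against BLU667 (adjusted p = 0.239). None was called, nor were differences among the colonies (moderated F, adjusted p = 0.427). The transcript level does not report on the amount or activity of the protein.

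Set side by side, the 5 tested genes did not follow 1 order of groups. For BLU667 against DMSO 2 of 5 were called (MT1E higher, SLC30A1 lower), where 60.2% of all tested genes were (29% higher and 31.2% lower), and without BLU667 replicate 1 the count was 4. MT1E is left out of the counts with the colonies, since it passed the filter through the parental groups alone. For the mean of the colonies against DMSO 2 of 4 were called (MT1X higher, SLC30A1 lower), against a background of 49.2% (22.9% higher and 26.3% lower), and against BLU667 1 of 4 (SLC30A1 higher), against 61.1% (32.4% higher and 28.7% lower). For single colonies against DMSO 7 of 12 were called, with backgrounds of 51.3% in BR8, 40.8% in BR10 and 45.5% in BR16. Against BLU667 4 of 12 were called, with backgrounds of 57.4%, 53.6% and 58.7%. Among the colonies 1 of 4, MT2A, was called, where 58.1% of all genes were, and without DMSO replicate 1 or 2 the count was 2. Nothing is read from these counts. Calls on the mean of the colonies, here and in the lists below, take libraries as replicates. With colony means as replicates instead, 1540 of 13927 genes were called against DMSO and 3656 against BLU667. The fit reported called 6848 and 8507. Calls of the list genes in that setting are not given. Groups without overlap between libraries were common too, at 76.6% of genes for BLU667 against DMSO, 35.1% for the colonies against DMSO and 49.3% for the colonies against BLU667. The comparisons with DMSO share its 2 libraries, and DMSO replicate 2 was above replicate 1 in 6 of 6 members, against 49.5% of tested genes.

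**Figure D3:**
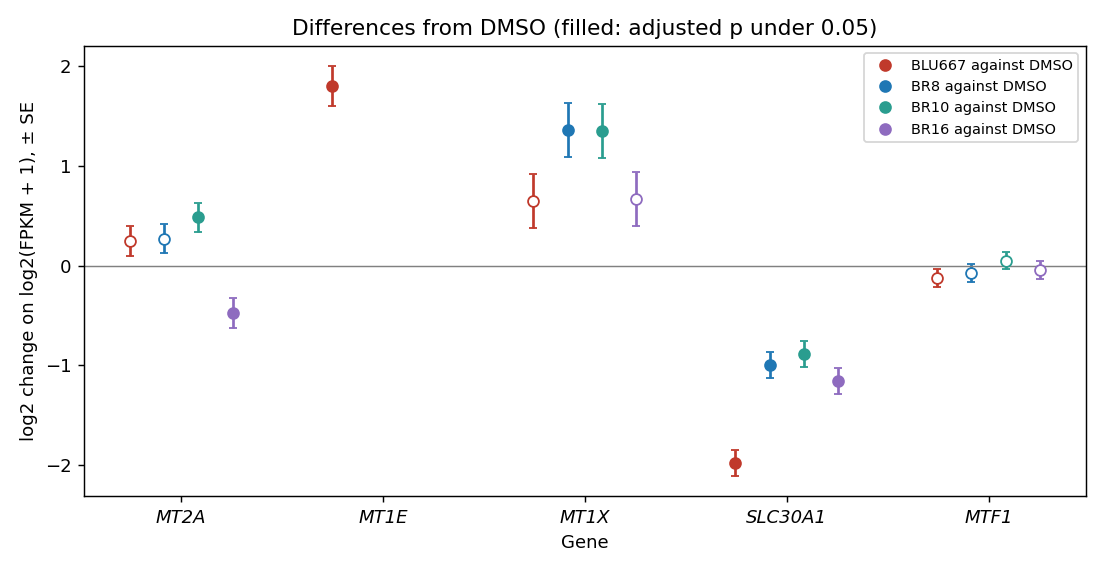
Log2 change against DMSO on the log2(FPKM + 1) scale for the 5 tested genes, with 1 point per comparison, bars of ± 1 SE and filled points where the adjusted p was under 0.05. SLC30A1 is below 0 in all 4 comparisons, MT2A is above 0 in BR10 and below in BR16, and MTF1 is near 0 throughout. MT1E is drawn for BLU667 alone, since the colonies had no read. Its bar can be too short, as the colonies at 0 add no spread to the fit.

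Per length, MT2A was the highest of the 6 genes in every group. In DMSO the order of FPKM was MT2A, SLC30A1, MT1E, MTF1, MT1X and MT1F, and in BLU667 it was MT2A, MT1E, SLC30A1, MTF1, MT1X and MT1F. MT1X stood above MTF1 in BR8 and BR10, where their libraries did not overlap in BR8 (3.30 and 4.75 against 3.18 and 2.83) or in BR10 (4.50 and 3.48 against 3.28 and 3.44). In BR16 MT1X was below MTF1 without overlap. The deposited gene lengths bear on this order, since that of MT1X is 1773 bases against 450 for its main transcript and that of MT1E 1052 against 704. Over the main transcripts alone, MT1X would stand above MTF1† in DMSO (3.88 and 3.23 FPKM), BLU667 (8.34 and 2.88) and BR16 (8.30 and 3.10), so that the order in these 3 groups turns. In BLU667 MT1X would also stand above SLC30A1 (7.91 FPKM).

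Over the 10 libraries on log2(FPKM + 1), the protein-coding genes most like MT1E were EYA1 (Pearson r = 0.994), TBX3 (0.991) and ZNF300 (0.990), of which EYA1 and TBX3 encode transcriptional regulators of development. The group means of EYA1 were 0.577 FPKM in DMSO against at most 0.00945 in the colonies, and those of ZNF300 were 1.53 against at most 0.0591. Most like SLC30A1 were LDHA (r = 0.991), the lactate dehydrogenase of glycolysis, POLE3 (0.989), a small subunit of DNA polymerase epsilon, and FAM72B (0.988). LDHA had means of 431 FPKM in DMSO, 106 in BLU667, 218 in BR8, 246 in BR10 and 195 in BR16. Most like MT2A were SSH2 (r = 0.945), DNAH14 (0.936) and ZNF675 (0.935), most like MT1X were LRRC57, MSANTD4 (both 0.974) and RMND5A (0.971), and most like MTF1† were POMGNT2 (0.876), KDSR (0.827) and AKR1B10 (0.820). Between pairs of members r ran from -0.57 (MT1E and MT1X) to 0.59 (SLC30A1 and MTF1†). These are descriptions over 5 pairs of libraries that share their groups and size factors, and overlaps of these genes with others were not looked up.

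Zinc exporters other than SLC30A1 were read from the same fit. This list and those below were chosen with earlier results of these data known, so their counts are descriptions. Of the 10 SLC30 genes 6 passed the filter. With BLU667 1 rose and 2 fell, where 29% of all tested genes rose and 31.2% fell. Their median log2 change was -0.07 against -0.01 over all tested genes. SLC30A1 was 1 of those that fell, with SLC30A6† (-0.44 ± 0.15, limma, adjusted p = 0.0338), an exporter of the secretory pathway, while SLC30A4† rose by 0.37 ± 0.12 (adjusted p = 0.0264). On the mean of the colonies SLC30A1 alone of the 6 was called against DMSO, where 49.2% of all tested genes were. Against BLU667 SLC30A1 and SLC30A6† were higher, where 32.4% of all tested genes were. The change of SLC30A6† was 0.38 (limma, adjusted p = 0.0244, not called in BR16). SLC30A5† was higher than DMSO in BR8 (0.47, limma, adjusted p = 0.0101) and was called among the colonies (adjusted p = 0.0119). SLC30A3†, below the filter, had 89 reads in DMSO, 40 in BLU667, 25 in BR8 and 12 in each of BR10 and BR16. SLC30A2 and SLC30A10† had no read in any library.

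The SLC39 importers changed in both directions. Of 14 genes 10 passed the filter, and 4 rose and 4 fell with BLU667 (median -0.16). The shares over all tested genes were 29% higher and 31.2% lower. SLC39A3, an importer of the plasma membrane, fell by -1.10 ± 0.22 (limma, adjusted p = 0.00295), from 5.30 ± 1.3 to 1.92 ± 0.46 FPKM. SLC39A8, which carries zinc and manganese, fell by -1.03 ± 0.12 (limma, adjusted p = 0.000153), from 6.69 ± 1.2 to 2.73 ± 0.0065 FPKM. SLC39A14†, an importer of zinc, iron and manganese, fell by -0.97 ± 0.10 (limma, adjusted p = 7.43e-05), from 31.6 ± 1.6 to 15.6 ± 0.76 FPKM, and SLC39A11† rose by 0.80 ± 0.08 (adjusted p = 7.78e-05).

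On the mean of the colonies 3 importers were higher and 2 lower than DMSO (median 0.17 against -0.03 over all genes). The shares over all tested genes were 22.9% higher and 26.3% lower. Singly, 5 were higher and 2 lower in BR8, 2 and 2 in BR10, and 4 and 2 in BR16. In these colonies 51.3%, 40.8% and 45.5% of all tested genes were called. SLC39A14† was lower by -1.35 ± 0.08 (limma, adjusted p = 6.39e-06), with colony means of 14.2, 9.90 and 11.7 FPKM in BR8, BR10 and BR16. SLC39A11† was higher by 0.79 (limma, adjusted p = 4.31e-05), SLC39A7†, an importer into the cytosol from the endoplasmic reticulum, by 0.59 (adjusted p = 0.0172; 0.36 and not called in BR10). SLC39A3 was lower by -0.81 on the mean (limma, adjusted p = 0.00673), from -1.21 in BR8 and -1.23 in BR10 but 0.01 in BR16 (adjusted p = 0.972). Against BLU667 the mean was higher in 4 and lower in 3 (median 0.14), where 32.4% and 28.7% of all tested genes were. SLC39A8 was higher by 1.32 ± 0.10 (limma, adjusted p = 1.21e-05), SLC39A13† by 0.77 and SLC39A7† by 0.72, and SLC39A10† was lower by -0.61. Singly, SLC39A13† was called in BR16 alone of the 3, SLC39A7† not in BR10 and SLC39A10† not in BR8. Differences among the colonies were called in 8 of the 10, where 58.1% of all tested genes were. SLC39A8 stood at 11.9 ± 1.1 in BR8, 10.2 ± 0.55 in BR10 and 4.66 ± 0.48 FPKM in BR16, and SLC39A13† at 7.51 ± 2.0, 5.71 ± 0.92 and 19.0 ± 0.49, so that BR16 was the lowest in the first and the highest in the second.

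**Figure D4:**
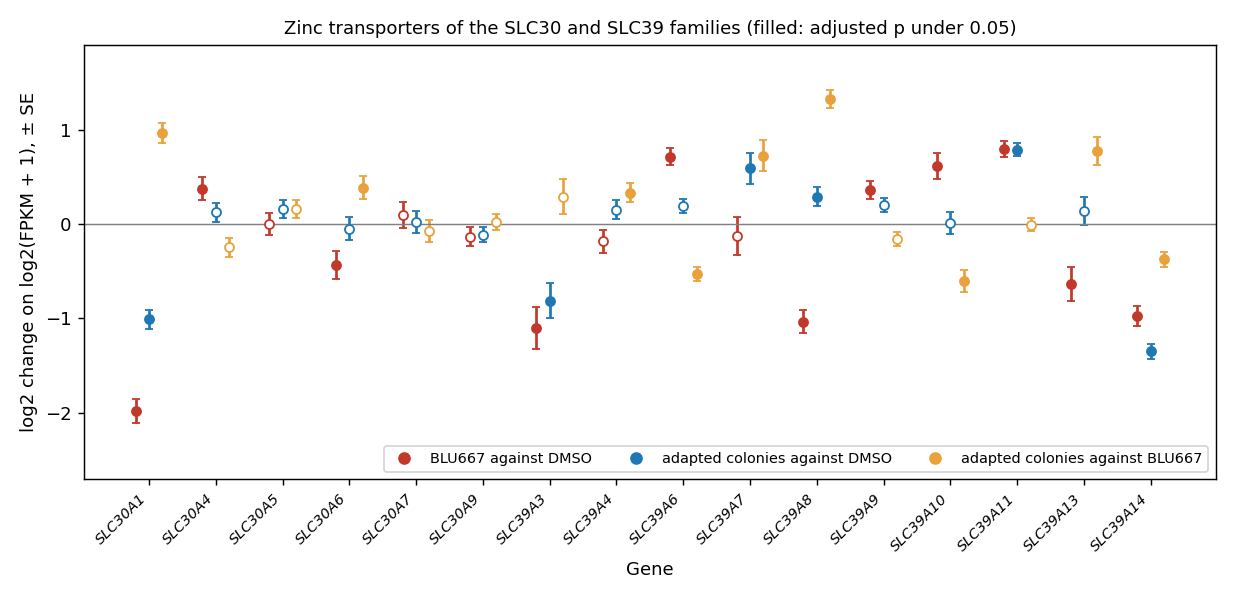
Log2 change on the log2(FPKM + 1) scale of the 6 SLC30 and 10 SLC39 genes that passed the filter, with 1 point per comparison, bars of ± 1 SE and filled points where the adjusted p was under 0.05. SLC30A1 shows the largest fall with BLU667 of the 16 genes at -1.98, SLC39A14 is below 0 in all 3 comparisons, and SLC39A8 is lower in BLU667 than in DMSO and in the colonies.

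Several other factors known to act at metallothionein or zinc transporter promoters were called in at least 1 comparison. Of the 7 listed, MTF1† among them, 2 rose and 1 fell with BLU667, where 29% of all tested genes rose and 31.2% fell. On the mean of the colonies 3 were lower than in DMSO and 2 lower than in BLU667. The shares over all tested genes were 26.3% and 28.7%. NR3C1†, the glucocorticoid receptor, rose with BLU667 by 0.72 ± 0.11 (limma, adjusted p = 0.000644), from 11.3 ± 1.5 to 19.1 ± 0.68 FPKM, and was lower in the colonies than in BLU667 by -1.01 ± 0.09 (adjusted p = 3.01e-05). NFE2L2†, the factor of the oxidant response, rose by 0.49 (limma, adjusted p = 0.0169), and USF1, an E-box factor, fell by -0.34 (adjusted p = 0.0384). On the mean of the colonies USF1 (-0.47), NR3C1† (-0.29) and SP1 (-0.27) were lower than in DMSO (limma, adjusted p = 0.00505, 0.0287 and 0.0102). Singly, USF1 was not called in BR16, NR3C1† not in BR8 and SP1 not in BR10.

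Of 7 genes that glucocorticoids induce, 6 were tested, and 3 rose and 2 fell with BLU667 (median 0.47). The shares over all tested genes were 29% higher and 31.2% lower. FKBP5†, a co-chaperone of the receptor, fell by -1.49 ± 0.09 (limma, adjusted p = 3.63e-06), while TSC22D3† (0.95 ± 0.08) and KLF9 (0.92 ± 0.14) rose. SGK1† had 0.194 and 0.196 FPKM in DMSO and 0.836 and 1.18 in BLU667. It passed the filter through BLU667 and the colonies alone, so its differences from DMSO are given as a description. The counts of this list include it. For the mean of the colonies 2 were higher and 2 lower than DMSO, SGK1† by 0.74, TSC22D3† by 0.32, ERRFI1† by -0.77 and FKBP5† by -0.75. The shares over all tested genes were 22.9% higher and 26.3% lower. TSC22D3† and ERRFI1† were not called in BR10.

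The listed genes that heavy metals and oxidants induce were mostly lower with BLU667, in a list chosen with earlier results of these data known. Of the 10 listed 9 were tested and 8 fell, where 31.2% of all tested genes fell, with 0 higher and a median of -1.02 against -0.01 over all genes. HSPH1, a heat shock chaperone, fell from 40.1 ± 8.4 to 9.74 ± 0.35 FPKM (-1.92 ± 0.13, limma, adjusted p = 5.10e-06). HSPA1B, an inducible HSP70 whose reads cannot be fully told from its near copy HSPA1A, fell by -1.88 (limma, adjusted p = 1.92e-06), DNAJB1† by -1.44 (adjusted p = 6.86e-06) and GCLM, a subunit of the enzyme that starts glutathione synthesis, by -1.27 (adjusted p = 1.98e-05). HMOX1, the haem oxygenase that heavy metals induce, had 19.0 and 32.7 FPKM in DMSO and 17.1 and 20.8 in BLU667, so that the libraries overlapped. On the mean of the colonies 4 of 9 were lower than DMSO and none higher (median -0.42), where 26.3% of all tested genes were lower and 22.9% higher. Singly, 7 were lower and 1 higher in BR8, 5 lower and 1 higher in BR10, and 7 lower in BR16. In these colonies 51.3%, 40.8% and 45.5% of all tested genes were called. TXNRD1†, a thioredoxin reductase, was higher in BR10 at 177 ± 0.82 FPKM than in DMSO at 79.2 ± 0.86, and stood at 60.8 in BR8 and 33.4 in BR16. The fall of the mean was largest in the co-chaperone BAG3, at -1.55 ± 0.12 (limma, adjusted p = 2.21e-05). Against BLU667 5 were higher and 1 lower (median 0.87), with HSPA1B at 1.35, HSPH1 at 1.31 and GCLM at 1.25. The shares over all tested genes were 32.4% higher and 28.7% lower.

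Copper genes were counted because metallothioneins also hold copper. Of 9 genes 8 were tested, and 3 rose and 2 fell with BLU667 (median 0.13). The shares over all tested genes were 29% higher and 31.2% lower. COX17, a copper chaperone for cytochrome oxidase, fell by -1.29 ± 0.15 (limma, adjusted p = 0.000144), and the copper exporter ATP7A† rose by 0.88 ± 0.11 (adjusted p = 0.000200), from 2.57 ± 0.51 to 5.55 ± 0.45 FPKM. For the mean of the colonies 5 were higher and 0 lower than DMSO (median 0.38), where 22.9% of all tested genes were higher and 26.3% lower. Singly, 3 were higher and 0 lower in BR8, 3 higher and 1 lower in BR10, and 4 higher and 1 lower in BR16. In these colonies 51.3%, 40.8% and 45.5% of all tested genes were called. Whether the list differed from all genes was not tested. The mean of ATP7A† was higher by 0.77 ± 0.09 (limma, adjusted p = 0.000221) at 5.14, 4.71 and 5.31 FPKM in BR8, BR10 and BR16.

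Genes beside the metallothionein cluster were read in the colonies. Of 8 neighbours 7 were tested, and 4 rose and 3 fell with BLU667 (median 0.76). The shares over all tested genes were 29% higher and 31.2% lower. SLC12A3, the sodium chloride cotransporter gene, had 0.0409 and 0.0785 FPKM in DMSO and 5.60 and 8.41 in BLU667. It passed the filter through BLU667 and the colonies alone, so its differences from DMSO are given as a description. The counts of this list include it. HERPUD1, a gene of the endoplasmic reticulum stress response, rose from 18.2 ± 1.2 to 103 ± 0.93 FPKM (2.43 ± 0.07 on the log2 scale, limma, adjusted p = 9.58e-08). On the mean of the colonies 4 were higher and 2 lower than DMSO (median 0.23), where 22.9% and 26.3% of all tested genes were. SLC12A3 stood at 3.65, 2.12 and 4.05 FPKM in BR8, BR10 and BR16. NUDT21† was lower than DMSO by -0.45 (limma, adjusted p = 0.00193, not called in BR10). NUP93, a nuclear pore gene downstream of MT1X, had 9.02 ± 0.69 FPKM in DMSO and 6.87 ± 0.26, 6.88 ± 0.27 and 6.12 ± 0.29 in BR8, BR10 and BR16.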

How the data were processed

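Total RNA of 10 TPC-1 libraries was depleted with GlobinClear, and the NEB library preparation kept no strand, per the labels' protocols. Per the submitters' processing notes, the tools were CASAVA, STAR 2.5, HTSeq 0.6.1 and DESeq2 (version given as 2) with GRCh38 (hg38); their settings and the annotation release are not given in the sources used here. Values deposited by the authors are FPKM per gene, with the gene length in bases beside them. The product of FPKM and length was divided by a step fitted to each library. The result was whole for 100% of values (tolerance 0.05 reads), which gave the reads, the depths and the floor of 3 reads.

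The 6 members and the gene lists were chosen with earlier results of these data known. A gene entered the test if its FPKM reached 1 in 2 or more libraries. The limma 3.58.1 package (R 4.3.3) fitted 5 groups at once (5 residual degrees of freedom) to log2(FPKM + 1), with a trend of variance on level. Two-sided p-values received the Benjamini-Hochberg adjustment over all 13927 genes. The adapted colonies were the mean of 3 group means, so that SE reflects libraries and not colonies. The fit was checked on simulated data. Of each list, up to 4 called genes with the largest change per comparison were named, and HMOX1, SLC30A2 and SLC30A10 were added after their values were seen. SLC30A3, which was not tested, was also named outside this rule. Other settings tried were pseudocounts of 0.1 and 0.25, no filter, a filter at 5 FPKM, median-of-ratios and quantile scaling, no variance trend, a replicate block, each library left out, voom on recovered reads, a loess correction for GC content in each library (span 0.3), only the groups compared, and colony means as replicates. Figures were drawn in Python 3.11.15 (matplotlib 3.10.9).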

Additional observations from a re-analysis of the deposited data

Results flagged for a closer look

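MT2A differed among the adapted colonies, with an adjusted p of 0.00231 in limma's moderated F test of that difference. The same test called 58.1% of all tested genes. Across genes, differences of BR16 from BR8 and BR10 followed GC content (Spearman correlation of 0.60 and 0.53). The mean of MT2A was 369 ± 3.0 FPKM (SD, n = 2) in BR16, 620 ± 34 in BR8 and 722 ± 109 in BR10. Both libraries of BR16 were below the 4 of the other colonies. The difference was called under all 20 other settings run.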

How the results depend on the processing

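Of 1299 single values under other settings, 1259 kept their side of the threshold, 30 came past it and 10 lost it. Among called values 0 changed sign, while 33 uncalled values, which count among the 1259, did. The counts here include MT1E. The number of tested genes called for BLU667 against DMSO, 2 in the fit reported, was 4 with voom on recovered reads and ran from 2 to 4 with each library left out. Among the colonies, 1 in the fit reported, it was 2 with voom and ran from 1 to 2 with each library left out. With each library left out, the counts ran from 3 to 3 for the colonies against DMSO, 2 to 3 against BLU667, 8 to 10 of 15 for single colonies against DMSO and 7 to 9 against BLU667. With no filter the MT2A calls of BR10 and BR16 against DMSO were lost (limma, adjusted p = 0.136 and 0.131), with more genes tested. With voom the MT1X change for BLU667 against DMSO was called (1.24, adjusted p = 0.0307); the cause was not tested. SLC30A1 kept its calls for BLU667 and for the colonies together against DMSO and against BLU667 under all settings run.

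Whether libraries with the same replicate number were handled together is not stated. Their deviations correlated at -0.163 to 0.109 over 10 pairs of groups, which cannot settle it, since bias of single libraries also enters these values. A replicate block left 2 genes called for BLU667 against DMSO, 3 and 2 for the colonies against DMSO and BLU667, 10 and 7 for single colonies and 1 among the colonies, and changed no call. Low reads limit MT1X and MT1F, and 2 libraries per group limit all tests.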
